A study of Mus musculus with 14 samples.

Results

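The 10 genes described here encode enzymes of glycerolipid and triglyceride synthesis: Gpam, Agpat2, Agpat3, Lpin1, Lpin2, Lpin3, Dgat1, Dgat2, Mogat1 and Cept1. They were taken from the deposited count table of mouse liver as the rows whose gene symbol is one of these names, 10 of 45706 rows, with 1 row for each symbol. All 10 passed the filter on low counts, which left 15676 genes to be tested. The livers came from male C57BL6/J mice, with no transgene or deletion in the labels. The C18:1-leucine group (3 libraries, replicates 1, 2 and 4, OAL in the titles) and the C18:1 group (4 libraries, OA in the titles) had eaten a MASH diet (Research Diets) for 16 weeks from the age of 8 weeks, and received the compound for a further 6 weeks with the diet continued. C18:1 is a monounsaturated fatty acid, and C18:1-leucine is the same acyl chain joined to the amino acid leucine. The MASH group (3 libraries, replicates 2, 3 and 4) ate this diet for 16 weeks from the same age. The diet is named for metabolic dysfunction-associated steatohepatitis, in which fat accumulation is joined by inflammation and liver injury. A vehicle is named for the further 6 weeks, but no label says whether the MASH mice received it. The chow group (4 libraries) ate standard chow (LabDiet) for 16 weeks from the same age. No further weeks are stated for MASH or chow mice, so that in comparisons of either compound with MASH or chow, treatment cannot be told apart from age and time on the diet. The sources used here state neither doses nor routes.

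Triglyceride is built on a glycerol backbone. Glycerol-3-phosphate acyltransferases such as the product of Gpam attach the first acyl chain, the AGPAT enzymes attach another to give phosphatidic acid, the lipins remove the phosphate to leave diacylglycerol, and the DGAT enzymes add the last acyl chain. Mogat1 makes diacylglycerol by a side route, from monoacylglycerol, and Cept1 draws diacylglycerol off into phosphatidylcholine and phosphatidylethanolamine. In liver the pathway makes the fat that is stored in droplets or exported in lipoproteins.

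Total counts ran from 33821899 to 51107275 over the 14 libraries. Levels are given as CPM, counts scaled to a common library size by TMM, and differences as log2 fold changes with their standard errors (SE) from edgeR. A gene is called when the adjusted p is under 0.05, adjusted by Benjamini and Hochberg over the 15676 genes. The labels do not say that the libraries of a group came from separate mice, so that p measures the spread between libraries, which may be technical. Titles set the groups here, and 2 libraries carry a treatment tag that differs from the title. C18:1 replicate 1 has a tag for diet only, and C18:1-leucine replicate 1 has the tag OA. Pancreatic enzyme transcripts summed to 422 CPM in C18:1-leucine replicate 2 and to 109 CPM in chow replicate 2, against 3.5 to 7.56 CPM elsewhere. For the 10 genes, calls that changed without either pair of these 4 libraries or with groups from the tags are stated. Numbers of calls over all genes are given in the same way. The other genes named were read in the main fit only.

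Transcripts of 6 hepatocyte genes (Alb, Apoa1, Ttr, Hnf4a, Cyp2e1 and Cps1) summed to 60100 to 81500 CPM in C18:1-leucine, 41100 to 50400 in C18:1, 52000 to 58500 in MASH and 77000 to 100000 CPM in chow livers. Transcripts of 6 macrophage genes summed to 211 to 300 CPM in C18:1-leucine, 371 to 624 in C18:1, 342 to 462 in MASH and 72.5 to 113 CPM in chow livers. In such bulk samples, fewer cells of a type and less RNA per cell cannot be told apart. The part of cell makeup in the results on the 10 genes was not tested.

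The comparison of MASH with chow asks which enzymes of the pathway differed on the diet. Mogat1 and Agpat2 were higher in MASH livers, and Lpin1, Lpin2 and Dgat1 were lower. Of the 10 genes, 5 were called, beside 35.5% of all tested genes. Calls of higher level numbered 2, beside 20.4% of all genes, and calls of lower level 3, beside 15.1%. The median log2 fold change of the 10 genes was −0.16, and that of all tested genes was 0.01. The changes of the 10 spanned −2.51 for Lpin1 to 2.68 for Mogat1. The libraries of MASH and chow did not overlap for 4 of the 10 genes, which were Agpat2, Lpin1, Dgat1 and Mogat1, beside 40.2% of all tested genes.

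**Figure D1:**
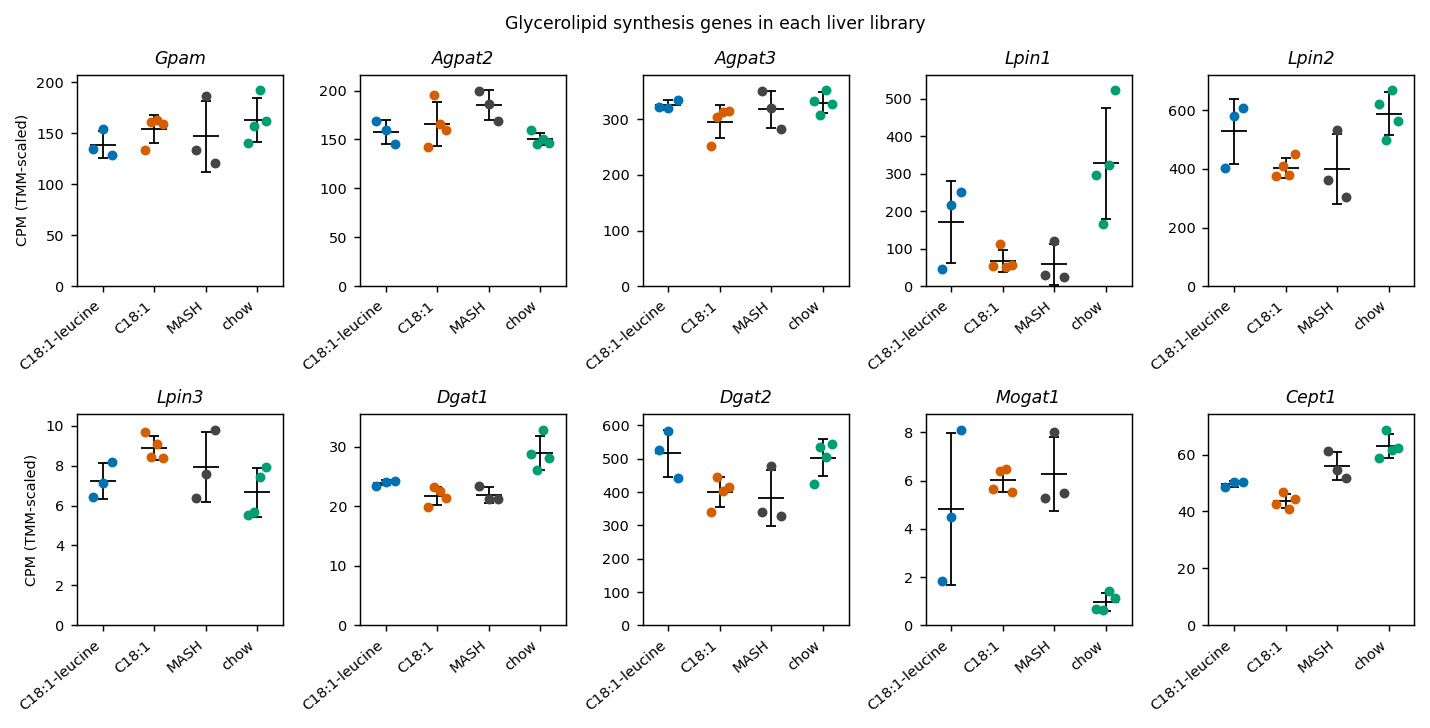
Level of each of the 10 genes in CPM (linear axes from 0) in each library of the C18:1-leucine (n = 3), C18:1 (n = 4), MASH (n = 3) and chow (n = 4) groups. Points are libraries, horizontal bars are group means and whiskers are SD. Mogat1 stands at 1.85 CPM or more in every library on the MASH diet and at 1.44 CPM or less on chow, while Lpin1 spreads widely within each group.

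The scale of the counts bears on these directions. TMM factors were 0.911 to 1.023 in C18:1-leucine, 1.041 to 1.212 in C18:1, 1.02 to 1.124 in MASH and 0.856 to 0.892 in chow libraries. With total counts as library sizes, an alternative chosen after seeing the data, the all-gene median of the log2 fold change moved to 0.28 in MASH against chow, 0.36 in C18:1 against chow and 0.15 in C18:1-leucine against chow. It moved to −0.24 in C18:1-leucine against C18:1 and to −0.14 in C18:1-leucine against MASH. Of the genes called in MASH against chow, 5951 were then higher and 554 lower, against 3200 higher and 2364 lower with TMM. In C18:1 against chow the split was 8175 higher and 851 lower, against 4352 and 3899 with TMM, and in C18:1-leucine against chow 2293 and 201, against 1595 and 680. In C18:1-leucine against C18:1 it was 259 higher and 3457 lower, against 1150 and 1393 with TMM. Relative to these medians, Dgat1 stood at −0.41 in MASH against chow, Lpin2 at −0.57, Lpin1 at −2.53, Agpat2 at 0.29 and Mogat1 at 2.67 on the log2 scale. With TMM the all-gene median in MASH against chow was already 0.007. Taking off the median therefore largely returns the TMM values and is no separate test of direction. With total counts as library sizes the calls of Dgat1 (adjusted p = 0.220, edgeR) and Lpin2 (adjusted p = 0.224) ended in that comparison. Those of Lpin2 (0.401), Dgat1 (0.593) and Cept1 (0.0742) ended in C18:1 against chow, and those of Dgat1 (0.299) and Cept1 (0.107) ended in C18:1-leucine against chow. Calls gained in this way were Lpin3 as higher in MASH against chow (0.54, adjusted p = 0.0382), and Agpat2 (0.49, adjusted p = 2.82e-05) and Agpat3 (0.20, adjusted p = 0.0397) as higher in C18:1 against chow. Relative to the all-gene medians of these comparisons, which again largely returns the TMM values, Lpin3 stood at 0.26, Agpat2 at 0.14 and Agpat3 at −0.15.

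Gpam encodes the mitochondrial glycerol-3-phosphate acyltransferase that starts the pathway, and lies on chromosome 19 at 55067268 to 55127238 of GRCm38, on the minus strand. Its level was 134.0, 154 and 128 CPM in C18:1-leucine livers, 133, 161, 163 and 159 in C18:1 livers, 133, 187 and 121 in MASH livers, and 140.5, 157, 192 and 162 CPM in chow livers. The 4 groups overlapped, and no comparison called the gene. In MASH against chow its log2 fold change was −0.15 ± 0.14 (95% interval −0.46 to 0.16), a direction that turns to 0.12 with total counts as library sizes. A difference as large as −0.46 on the log2 scale lies within this interval.

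The enzymes of the next acylation differed from each other. Agpat2, which in humans is mutated in a form of congenital generalized lipodystrophy, lies on chromosome 2 at 26593057 to 26604417. It measured 169, 159.6 and 145 CPM in C18:1-leucine livers, 142, 196, 165 and 159 in C18:1 livers, 199.6, 186 and 169 in MASH livers, and 159.9, 145.5, 150.1 and 146.5 CPM in chow livers. Every MASH library lay above every chow library, and the other groups overlapped both. Agpat2 was higher in MASH than in chow by 0.30 ± 0.10 on the log2 scale (22.9% higher, adjusted p = 0.0352, edgeR).

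The call of Agpat2 depended on single libraries. It ended without MASH replicate 2 (adjusted p = 0.130), without MASH replicate 3 (0.0794) and without chow replicate 2 (0.0730), 3 (0.0677) or 4 (0.0791). It also ended without both libraries that held pancreatic transcripts (0.0955), with groups taken from the treatment tags (0.115) and with the replicate block (0.05, no longer under the threshold). Agpat2 shares 64 bases of exon with Egfl7 on the opposite strand, and the sources used here do not state whether the counting used strand.

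Agpat3, on chromosome 10 at 78269178 to 78352489, encodes an enzyme of the same family with a preference for polyunsaturated acyl chains. Its libraries lay between 319.7 and 335 CPM in C18:1-leucine, 252 and 315 in C18:1, 283 and 351 in MASH, and 307 and 353 CPM in chow livers. No comparison called it, and in MASH against chow its log2 fold change was −0.05 ± 0.10 (95% interval −0.26 to 0.15), which turns to 0.21 with total counts as library sizes. As a share of the summed CPM per kilobase of exon of Agpat2 and Agpat3, a ratio that no scaling of the library can move, Agpat2 made up 61.3% to 65.7% in C18:1-leucine, 64.9% to 70.2% in C18:1, 67.5% to 68.6% in MASH and 60.9% to 63.8% in chow livers. The shares in both the MASH and the C18:1 livers lay above those in chow with no overlap, and those in C18:1-leucine livers overlapped chow.

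The lipin step held the largest fall of the 10 genes in MASH against chow, that of Lpin1. Lpin1 encodes lipin-1, a phosphatidate phosphatase that also acts as a coactivator of PPARα target genes in liver, and fasting and glucocorticoids are known to induce it. It lies on chromosome 12 at 16535669 to 16610966, minus strand. Its level was 45.7, 217 and 250.4 CPM in C18:1-leucine livers, 53.8, 112, 50.03 and 55.5 in C18:1 livers, 29.8, 120.0 and 23.03 in MASH livers, and 296, 166, 324 and 522 CPM in chow livers. All MASH and C18:1 libraries lay below all chow libraries, while C18:1-leucine replicates 2 and 4 fell within the chow range and replicate 1 below it.

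Lpin1 was lower in MASH than in chow by a log2 fold change of −2.51 ± 0.71 (95% interval −4.04 to −0.97, adjusted p = 0.0162, edgeR). Its level fell by 82.4%, and 3 of 3 MASH libraries lay below chow. The adjusted p was 0.0661 without MASH replicate 2 and 0.0776 without MASH replicate 4, with changes of −2.20 and −2.13, and without MASH replicate 3 the change was −3.63 (adjusted p = 0.00520). Lpin1 in C18:1 livers against chow was at −2.27 ± 0.63 (adjusted p = 0.00927), and this call held with each library left out. For C18:1-leucine against chow it was −0.94 ± 0.66 (95% interval −2.37 to 0.50, adjusted p = 0.350), which was not called. The coefficient of variation of Lpin1 was 64.2% in C18:1-leucine, 43.6% in C18:1, 93.9% in MASH and 45.0% in chow livers, the highest of the 10 genes except in C18:1-leucine livers, where that of Mogat1 was 65.4%.

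Lpin2 encodes lipin-2, the lipin of highest level per kilobase in 13 of the 14 libraries (Lpin1 was higher in chow replicate 4), and lies on chromosome 17 at 71182560 to 71249817, plus strand. It measured 402, 579.6 and 607 CPM in C18:1-leucine livers, 376, 411, 378 and 451 in C18:1 livers, 361, 533 and 304 in MASH livers, and 621, 499.8, 669 and 563 CPM in chow livers. MASH replicate 3 lay within the chow range and the other MASH libraries below it. The log2 fold change in MASH against chow was −0.56 ± 0.19 (adjusted p = 0.0330, edgeR), and the adjusted p was 0.0625 and 0.0822 without chow replicates 1 and 3, 0.105 and 0.153 without MASH replicates 2 and 4, and 0.0521 with both groups fitted alone. Lpin2 in C18:1 livers against chow was at −0.54 ± 0.17 (adjusted p = 0.0173, edgeR, and 0.0515 without chow replicate 3). Its libraries did not overlap, as in 46.6% of all tested genes. Against chow, Lpin2 in C18:1-leucine livers was at −0.15 ± 0.19 (95% interval −0.55 to 0.25), not called, and it turns to 0.01 without both libraries whose labels disagree.

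Lpin3, on chromosome 2 at 160880670 to 160906002, was the least abundant lipin. Its counts were 192 to 504 per library, or 6.401, 7.13 and 8.16 CPM in C18:1-leucine livers, 9.67, 8.41, 9.06 and 8.39 in C18:1 livers, 6.38, 7.60 and 9.81 in MASH livers, and 5.52, 5.69, 7.45 and 7.95 CPM in chow livers. Every C18:1 library lay above every chow library, while MASH and C18:1-leucine overlapped chow. Lpin3 was higher in C18:1 than in chow by 0.42 ± 0.15 on the log2 scale (adjusted p = 0.0328, edgeR). This call ended without chow replicate 1 (0.0902) or 2 (0.0911) and without C18:1 replicate 1 (0.0832) or 3 (0.0633), and in the fits without both pancreatic libraries (0.112), without both libraries with disagreeing labels (0.0876) and with groups from the tags (0.209). In MASH against chow it was 0.25 ± 0.16 (adjusted p = 0.241).

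The makeup of the lipin family differed between groups. Of the summed CPM per kilobase of the 3 lipins, Lpin1 made up 12.0%, 31.3% and 33.3% in C18:1-leucine livers, 14.3%, 24.4%, 13.4% and 12.8% in C18:1 livers, 9.0%, 21.4% and 7.97% in MASH livers, and 36.9%, 28.9%, 37.2% and 52.9% in chow livers. Lpin2 averaged 71.1% ± 10.9 in C18:1-leucine, 78.0% ± 4.98 in C18:1, 81.4% ± 5.66 in MASH and 58.9% ± 9.93 in chow livers (SD). The share of Lpin1 in MASH and in C18:1 livers lay below chow without overlap, and that in C18:1-leucine livers spanned both ranges.

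**Figure D2:**
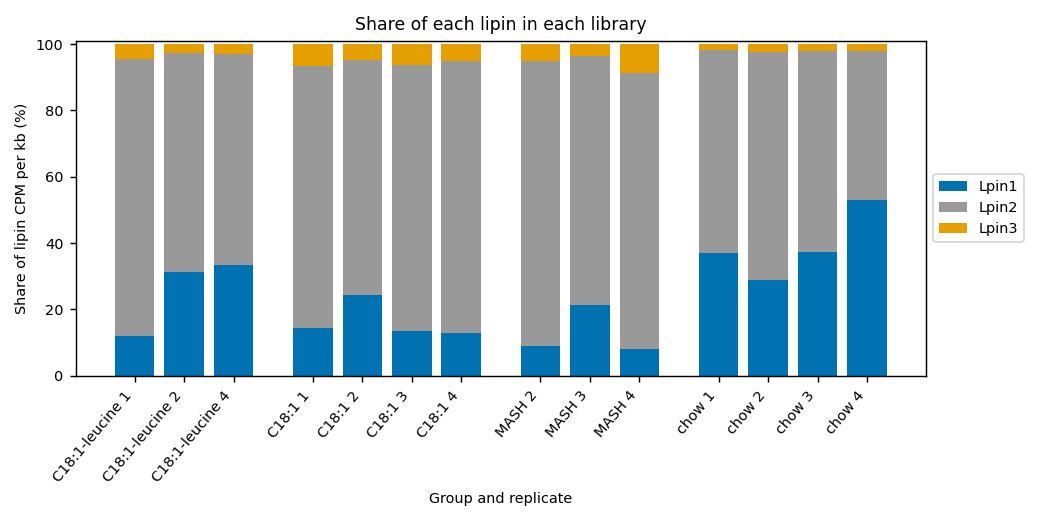
Share of Lpin1, Lpin2 and Lpin3 (% of their summed CPM per kilobase of exon) in each of the 14 libraries, grouped as C18:1-leucine, C18:1, MASH and chow; each bar is 1 library and sums to 100%. Lpin1 takes 28.9% to 52.9% in chow and 7.97% to 21.4% in MASH livers, and C18:1-leucine replicate 1 (12.0%) stands apart from replicates 2 and 4.

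Lpin1 and Lpin2 varied together. Over the 14 libraries the Pearson correlation of their log2 CPM was 0.925, and 0.846 after the mean of each group was taken off, as a description over libraries that share groups and scaling. Mogat1 was higher where Lpin1 and Lpin2 were lower over all libraries (r = −0.51 and −0.43), but within groups it varied in the same direction as both (0.773 and 0.693). With Lpin3 its correlation was 0.69 over all libraries and 0.581 within groups. Such likeness within groups was not particular to these genes, since Gpam and Dgat2 stood at 0.847 and Agpat3 and Dgat1 at 0.762. The RefSeq promoters (build GRCm38.p6) of Lpin1, Lpin2 and Mogat1 are shown as the 250 bases before each start, 5′ to 3′ on the strand of the gene. Windows were on record for 8 of the 10 genes, all but Dgat1 and Dgat2. Capitals mark matches, on either strand, to the searched motifs: CACGTG (the E-box), TCACNCCAC (a sterol response element), the DR1 element of PPARs, TGACGTCA (the cAMP response element) and AGGTCA (the nuclear receptor half-site, which lies within DR1 and was added after the sequences were seen). The Lpin1 stretch is chr12:16610967-16611216 (minus), that of the first Lpin2 start chr17:71183282-71183531 (plus) and that of Mogat1 chr1:78510810-78511059 (plus).
Lpin1: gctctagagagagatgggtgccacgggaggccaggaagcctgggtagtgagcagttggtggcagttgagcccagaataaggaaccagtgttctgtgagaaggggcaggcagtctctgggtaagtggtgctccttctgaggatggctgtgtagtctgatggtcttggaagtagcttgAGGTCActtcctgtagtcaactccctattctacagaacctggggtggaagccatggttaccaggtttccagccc
Lpin2: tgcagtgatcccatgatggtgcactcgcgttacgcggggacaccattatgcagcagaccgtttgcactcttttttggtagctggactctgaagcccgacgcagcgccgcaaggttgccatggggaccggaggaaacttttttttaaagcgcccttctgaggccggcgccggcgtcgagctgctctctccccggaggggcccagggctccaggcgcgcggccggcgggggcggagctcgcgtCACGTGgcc
Mogat1: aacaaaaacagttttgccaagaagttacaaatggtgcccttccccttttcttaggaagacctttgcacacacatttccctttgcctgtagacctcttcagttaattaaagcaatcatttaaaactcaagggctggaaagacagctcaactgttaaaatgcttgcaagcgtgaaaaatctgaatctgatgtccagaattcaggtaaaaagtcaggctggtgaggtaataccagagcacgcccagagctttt

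In the full windows, which run 50 bases past the start, Lpin1 held AGGTCA at −74 to −69 and Lpin2 held CACGTG at −9 to −4, where 0 is the first transcribed base. Lpin3 held CACGTG at 22 to 27, window 2 of Gpam held AGGTCA at −196 to −191, and none of the motifs was found in the windows of Mogat1, Agpat2, Agpat3 or Cept1. Of 32851 RefSeq promoter windows of the same length, 16.3% held AGGTCA, 7.15% CACGTG, 1.79% TGACGTCA, 1.24% TCACNCCAC and 0.0396% the DR1 element. These matches describe the letters of the windows and do not show binding.

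**Figure D3:**
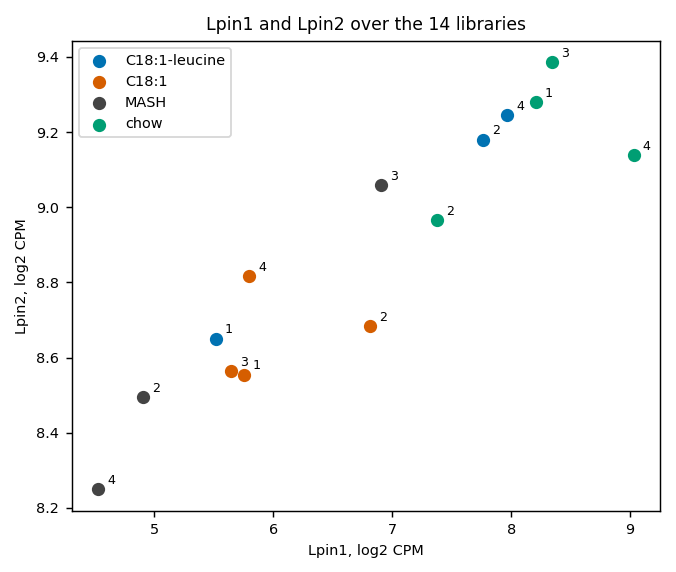
Log2 CPM of Lpin2 (vertical axis) against that of Lpin1 (horizontal axis) in the 14 libraries, coloured by group and marked with the replicate number. The points run along 1 band (Pearson r = 0.925), with MASH replicates 2 and 4 at its low end and 3 of the 4 chow libraries with C18:1-leucine replicates 2 and 4 at its high end.

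The final acylation is carried out by Dgat1 and Dgat2, which are unrelated in sequence. In mice and humans Dgat2 is mostly tied to newly made fatty acids and Dgat1 to re-esterification of fatty acids from outside. Dgat1, on chromosome 15 at 76502015 to 76511953, measured 23.4, 24.0 and 24.2 CPM in C18:1-leucine livers, 19.8, 23.3, 22.5 and 21.4 in C18:1 livers, 23.4, 21.2 and 21.1 in MASH livers, and 28.7, 26.05, 32.9 and 28.1 CPM in chow livers. All 10 libraries on the MASH diet lay below all 4 chow libraries. The fall in MASH against chow was −0.40 ± 0.08 on the log2 scale (a change of −24.3%, adjusted p = 0.00252, edgeR), and it was called with each of the 14 libraries left out in turn.

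Dgat1 was lower by 0.41 ± 0.08 on the log2 scale in C18:1 than in chow (adjusted p = 0.000600, edgeR) and by 0.28 ± 0.08 in C18:1-leucine than in chow (adjusted p = 0.0400). The call in C18:1-leucine ended without chow replicate 1 or 3, without C18:1 replicate 4 and without C18:1-leucine replicate 1, 2 or 4, at adjusted p of 0.0510 to 0.105. It also ended without both libraries with pancreatic transcripts (0.0673), without both libraries with disagreeing labels (0.0994), with groups from the tags (0.119), with the replicate block (0.0889), with no filter on low counts (0.0728), with the compared groups fitted alone (0.0767) and with total counts as library sizes (0.299).

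Dgat2, on chromosome 7 at 99153658 to 99182719, had the highest level per kilobase of the 10 genes. It measured 527, 582 and 442 CPM in C18:1-leucine livers, 339, 446, 402 and 414 in C18:1 livers, 341, 479.6 and 329 in MASH livers, and 424, 537, 507 and 545.5 CPM in chow livers. MASH replicate 3 and C18:1 replicate 2 lay within the chow range, the other MASH and C18:1 libraries below it, and every C18:1-leucine library within or above it. The log2 fold change was −0.39 ± 0.15 in MASH against chow (adjusted p = 0.0568, edgeR) and −0.33 ± 0.14 in C18:1 against chow (adjusted p = 0.0597), both just outside the threshold. DESeq2 gave 0.0242 and 0.0373 for the same differences and limma voom 0.0165 and 0.0186. In MASH against chow, relative log expression scaling (0.0483), the replicate block (0.0342) and groups from the tags (0.0295) also called Dgat2, as did fitting both groups alone in C18:1 against chow (0.0407). Without MASH replicate 3 the change in MASH against chow became −0.59 (adjusted p = 0.0101, edgeR). Of the 14 fits with 1 library left out, 3 called Dgat2 in MASH against chow and 4 in C18:1 against chow. With total counts as library sizes neither difference was called, at −0.13 in MASH against chow and 0.03, a turned sign, in C18:1 against chow. Against chow, Dgat2 in C18:1-leucine livers was at 0.04 ± 0.15 (95% interval −0.28 to 0.36), and it turns to −0.02 without the pancreatic libraries. Dgat2 made up 93.5% to 96.0% of the summed CPM per kilobase of both DGAT genes in every library.

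Mogat1 was higher in all 3 groups on the MASH diet than in chow. Its product makes diacylglycerol from monoacylglycerol, and in mouse liver it is low on chow and known to rise in steatosis. It lies on chromosome 1 at 78510991 to 78538173. Mogat1 measured 1.85, 4.49 and 8.12 CPM in C18:1-leucine livers, 5.66, 6.39, 6.47 and 5.54 in C18:1 livers, 5.26, 8.03 and 5.51 in MASH livers, and 0.662, 0.652, 1.44 and 1.12 CPM in chow livers. Counts were 22 to 57 in the chow libraries and 86 to 363 on the MASH diet, and every library on the diet lay above every chow library.

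Mogat1 was 6.42-fold higher in MASH than in chow, a log2 fold change of 2.68 ± 0.41 (95% interval 1.80 to 3.56, adjusted p = 0.000366, edgeR). It was higher by 2.62 ± 0.39 in C18:1 than in chow (adjusted p = 0.000142) and by 2.30 ± 0.41 in C18:1-leucine than in chow (adjusted p = 0.00371). The 3 calls held with each of the 14 libraries left out, and the change in C18:1-leucine then ranged from 1.68 without C18:1-leucine replicate 4 to 2.69 without C18:1-leucine replicate 1. The C18:1-leucine libraries themselves differed 4.39-fold, with replicate 1, whose tag disagrees, the lowest and replicate 4 the highest. Exons of Mogat1 and BC035947 overlap by 200 bases on opposite strands, and BC035947 had 0 to 35 counts per library.

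The genes whose log2 CPM followed Mogat1 most closely over the 14 libraries were Themis (Pearson r = 0.974), Osbpl3 (0.972), Cd36 (0.970), Pkp1 (0.970) and Cidec (0.967), and within groups their correlations were 0.769 to 0.844. For Lpin1 they were Tle1 (0.959), Atosa (0.928), Lpin2 (0.925), Mast3 (0.922) and Fchsd2 (0.919). The 14 libraries share 4 groups and 1 scaling, so these values only describe likeness. Transcripts of 5 adipocyte genes summed to 24.9 to 73.1 CPM in C18:1-leucine, 5.33 to 61.1 in C18:1, 15.7 to 30.4 in MASH and 0.115 to 1.15 CPM in chow livers. Nearly all of the sum was Cfd, since Lep was at 0 in every library and Adipoq reached at most 0.0889, Plin1 0.0359 and Retn 0.0359 CPM.

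Cept1, the choline and ethanolamine phosphotransferase that turns diacylglycerol into membrane phospholipids, lies on chromosome 3 at 106502260 to 106547802. It measured 48.5, 50.3 and 50.2 CPM in C18:1-leucine livers, 42.5, 46.9, 41.0 and 44.5 in C18:1 livers, 61.2, 54.7 and 51.7 in MASH livers, and 58.9, 68.8, 61.7 and 62.3 CPM in chow livers. The C18:1 and C18:1-leucine libraries lay below every MASH and every chow library, and MASH overlapped chow. Cept1 was lower in C18:1 than in chow by 0.52 ± 0.07 on the log2 scale (adjusted p = 4.75e-05, edgeR), and lower in C18:1-leucine than in chow by 0.34 ± 0.07 (adjusted p = 0.0105). Both calls held with each library left out. That in C18:1-leucine ended without both pancreatic libraries (adjusted p = 0.0610) and with groups from the tags (0.129). In MASH against chow the change was −0.17 ± 0.07 (95% interval −0.33 to −0.01, adjusted p = 0.0875), which was not called. It was called as lower by DESeq2 (−0.18, adjusted p = 0.0394), with the replicate block (adjusted p = 0.0475), with groups from the tags (−0.26, adjusted p = 0.0457) and without MASH replicate 2 (−0.24, adjusted p = 0.0328), and its sign turned to 0.10 with total counts as library sizes. Exons of Cept1 and Dennd2d overlap by 771 bases on opposite strands, and Dennd2d had 300 to 768 counts per library.

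Against chow, the 3 groups on the MASH diet were compared with the same 4 chow libraries. In C18:1 livers 6 of the 10 genes were called, beside 52.6% of all genes, with 2 higher (beside 27.8%) and 4 lower (beside 24.9%). In C18:1-leucine livers 3 of the 10 were called, beside 14.5% of all genes, with 1 higher (beside 10.2%) and 2 lower (beside 4.34%). Libraries did not overlap with chow for 6 of the 10 in C18:1 livers, beside 46.6% of all genes. In C18:1-leucine livers this held for 3 of the 10, beside 29.2%. Mogat1 and Dgat1 were called in all 3 groups, and Cept1 in both groups given a compound. Lpin1 and Lpin2 were called in MASH and C18:1 but not in C18:1-leucine livers, Agpat2 in MASH and Lpin3 in C18:1 livers. With total counts as library sizes, Agpat2 and Agpat3 were also called in C18:1 livers and Lpin3 in MASH livers. Whether these effects differ between groups is a matter for the direct comparisons between them and not for these counts. Without both pancreatic libraries the counts were 4 in MASH, 5 in C18:1 and 1 in C18:1-leucine livers, with groups from the tags 6, 5 and 1, and without both libraries of disagreeing labels 5, 5 and 2.

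**Figure D4:**
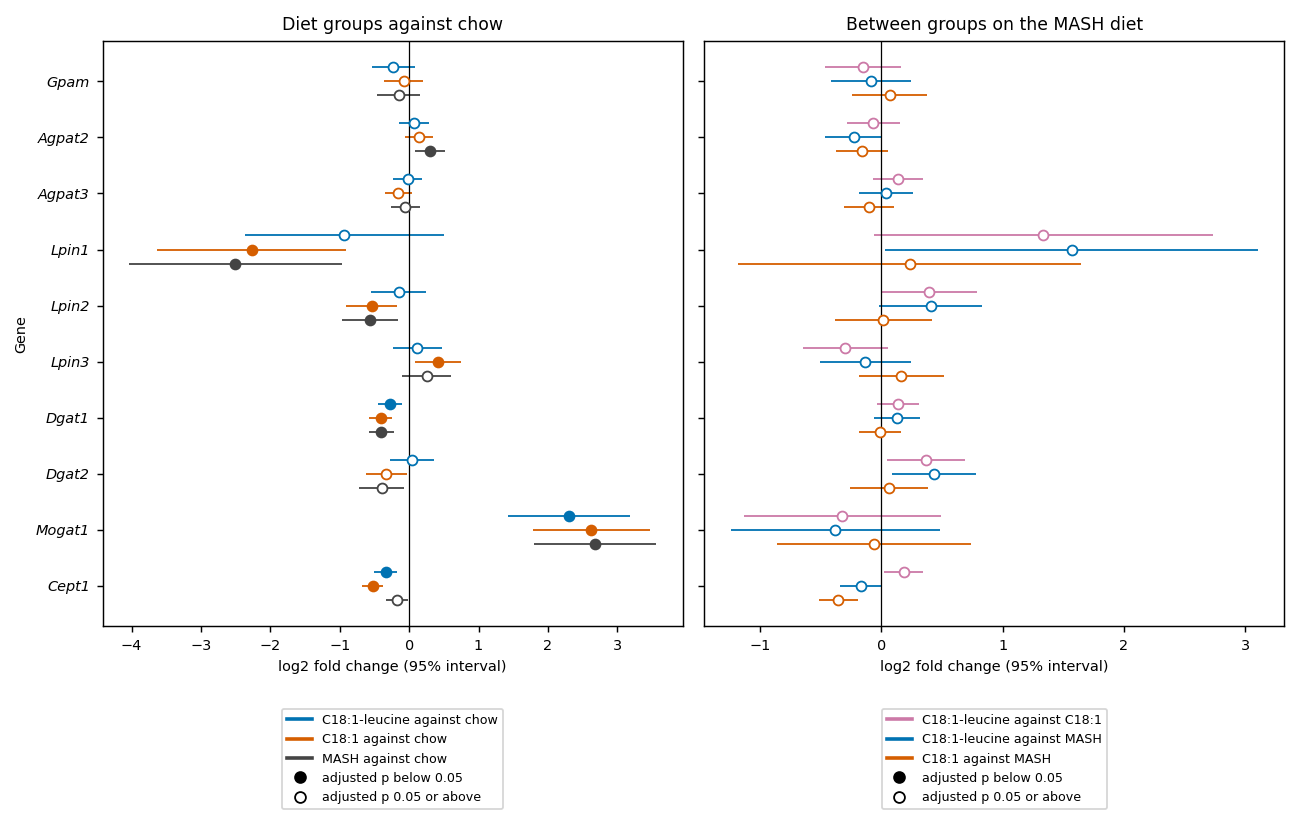
Log2 fold change of each gene with its 95% interval from the edgeR fit, for the 3 groups on the MASH diet against chow (left) and for the groups on the MASH diet against each other (right). Filled points passed an adjusted p of 0.05. Mogat1 lies between 2.30 and 2.68 in all 3 groups against chow, and in the right panel all points are open.

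Between C18:1 and MASH livers none of the 10 genes was called, beside 0.0% of all genes. Here the fatty acid cannot be told apart from age and further time on the diet. At an unadjusted p under 0.05 stood 1 of the 10 and 968 of all genes with edgeR, whereas DESeq2 called 3 genes and limma voom 0. The gene in both counts was Cept1, lower in C18:1 by 0.35 ± 0.07 on the log2 scale with no overlap of libraries, as in 5.46% of all genes (a change of −21.7%, unadjusted p = 0.000318, adjusted p = 0.772, edgeR; adjusted p = 0.0294, DESeq2). With each library left out the adjusted p of edgeR did not pass, and the change stayed between −0.41 and −0.28. For the other 9 genes the changes lay between −0.16 for Agpat2 and 0.24 for Lpin1. The interval of Lpin1 ran from −1.18 to 1.65 and that of Mogat1 from −0.86 to 0.74, so that 2-fold differences in Lpin1 in either direction lie within it, whereas those of Dgat1 (−0.19 to 0.17) and Agpat3 (−0.31 to 0.10) were narrow.

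Between C18:1-leucine and MASH livers none of the 10 genes was called, beside 0.0702% of all genes. By edgeR without adjustment 2 of the 10 and 2833 of all 15676 genes had p under 0.05. Neither DESeq2 nor limma voom called any of the 10. Dgat2 was 1.35 times its MASH level in C18:1-leucine livers (log2 0.43 ± 0.16, 95% interval 0.09 to 0.78, unadjusted p = 0.0177, adjusted p = 0.184). Lpin1 was 2.97 times its MASH level (log2 1.57 ± 0.71, 95% interval 0.03 to 3.11, unadjusted p = 0.0460, adjusted p = 0.266), and its libraries overlapped, since C18:1-leucine replicate 1 and MASH replicate 3 crossed. Dgat1 and Cept1 did not overlap between these groups (2 of the 10, beside 22.3% of all genes), with changes of 0.13 ± 0.09 and −0.17 ± 0.08. Mogat1 differed by −0.38 ± 0.40 (95% interval −1.24 to 0.48).

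C18:1-leucine and C18:1 differ by the leucine joined to the acyl chain. Whether their doses were matched is not known from the sources used here. None of the 10 genes was called between them, beside 16.2% of all genes. At an unadjusted p under 0.05 with edgeR stood 2 of the 10 and 5010 of all 15676 genes. Dgat2 was 1.29 times its C18:1 level in C18:1-leucine livers (log2 0.37 ± 0.15, 95% interval 0.05 to 0.69, adjusted p = 0.108, edgeR) and Cept1 1.14 times (0.18 ± 0.07, interval 0.02 to 0.34, adjusted p = 0.107). Limma voom with sample weights called both, at adjusted p of 0.0206 and 0.0365, and DESeq2 called 0 of the 10. With total counts as library sizes, Cept1 turned to −0.04 and edgeR called Agpat2 as lower in C18:1-leucine (−0.29, adjusted p = 0.0109). Relative to the all-gene median of that fit, which largely returns the TMM values, Cept1 stood at 0.20 and Agpat2 at −0.05.

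Lpin1 in C18:1-leucine livers was 2.52 times its C18:1 level with an interval that includes no difference (log2 1.33 ± 0.64, 95% interval −0.06 to 2.73, adjusted p = 0.176), and Lpin2 1.31 times (0.39 ± 0.18, interval −0.01 to 0.79, adjusted p = 0.163). Agpat3, Lpin3, Dgat1 and Cept1 had no overlap between these groups, 4 of the 10 genes, beside 27.7% of all genes whose libraries did not overlap. The effects against chow seen in C18:1 and not called in C18:1-leucine livers are thus not shown to differ for Lpin1, Lpin2 or Lpin3.

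Levels of the 10 genes were ranked by CPM per kilobase of exon, with the length taken over all annotated exons of a gene. Dgat2 stood highest in each group, at 168 ± 22.98 in C18:1-leucine, 129.9 ± 14.6 in C18:1, 124 ± 27.2 in MASH and 163 ± 17.96 CPM per kilobase in chow livers (SD). Agpat2 came next, at 74.1 ± 5.64 in C18:1-leucine, 77.7 ± 10.6 in C18:1, 86.8 ± 7.27 in MASH and 70.7 ± 3.08 CPM per kilobase in chow livers. In chow livers Lpin2 (48.1 ± 5.98), Agpat3 (42.4 ± 2.39) and Lpin1 (33.8 ± 15.2) followed, with neighbours closer than their SD. In MASH livers Agpat3 (40.8 ± 4.38) and Lpin2 (32.7 ± 9.75) held these places, and Lpin1 (5.96 ± 5.603) stood below Gpam (22.05 ± 5.22), Cept1 (17.9 ± 1.56) and Dgat1 (7.165 ± 0.42). Mogat1 was at 3.09 ± 2.02 in C18:1-leucine, 3.86 ± 0.31 in C18:1, 4.02 ± 0.98 in MASH and 0.621 ± 0.244 CPM per kilobase in chow livers, the lowest of the 10 on chow, where Lpin3 had 1.80 ± 0.33.

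A list of 47 other genes of the pathway, from glycerol phosphate supply and acyl-CoA synthesis to phospholipid branches, was read in the same way. In MASH against chow 12 of the 47 were higher and 6 lower, 38.3% beside the 35.5% of all genes, and the median change was 0.05. Those of smallest p were Cds1, which makes CDP-diacylglycerol (1.25 ± 0.19), Gpd2, the mitochondrial glycerol phosphate dehydrogenase (1.04 ± 0.17), the acyltransferase gene Agpat4 (0.88 ± 0.20), the phosphatidylserine decarboxylase gene Pisd (0.26 ± 0.06), the choline kinase gene Chka (1.26 ± 0.31) and Gpat3, which acylates glycerol phosphate as Gpam does (0.92 ± 0.24), with adjusted p of 0.000299 to 0.0110 (edgeR). Cds1 averaged 1.41 ± 0.13 CPM in MASH and 0.593 ± 0.042 in chow livers, and Gpd2 lay between 52.2 and 74.0 CPM in MASH and between 29.2 and 32.4 CPM in chow livers.

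In C18:1 against chow 13 of the 47 were higher and 11 lower (51.1% beside 52.6%), among them Cds1 (1.41 ± 0.18), Gpd2 (1.02 ± 0.16), Agpat4 (1.13 ± 0.18), the monoacylglycerol acyltransferase gene Mogat2 (2.34 ± 0.44), Pgs1 of phosphatidylglycerol synthesis (0.59 ± 0.11) and, in the other direction, the phosphoethanolamine gene Pcyt2 (−0.45 ± 0.07). In C18:1-leucine against chow 6 were higher and 0 lower (12.8% beside 14.5%): Fitm1, which helps package fat into droplets (0.97 ± 0.17), Cds1 (0.78 ± 0.19), Gpat2 (1.24 ± 0.30), Mogat2 (1.79 ± 0.47), Gpd2 (0.61 ± 0.17) and Agpat4 (0.71 ± 0.20). Without adjustment 12 of the 47 had p under 0.05 in that comparison, beside 4929 of all 15676 genes. Mogat2, a relative of Mogat1, stayed at a low level of 0.465 ± 0.254 CPM in C18:1-leucine, 0.685 ± 0.122 in C18:1, 0.275 ± 0.158 in MASH and 0.133 ± 0.031 CPM in chow livers.

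**Figure D5:**
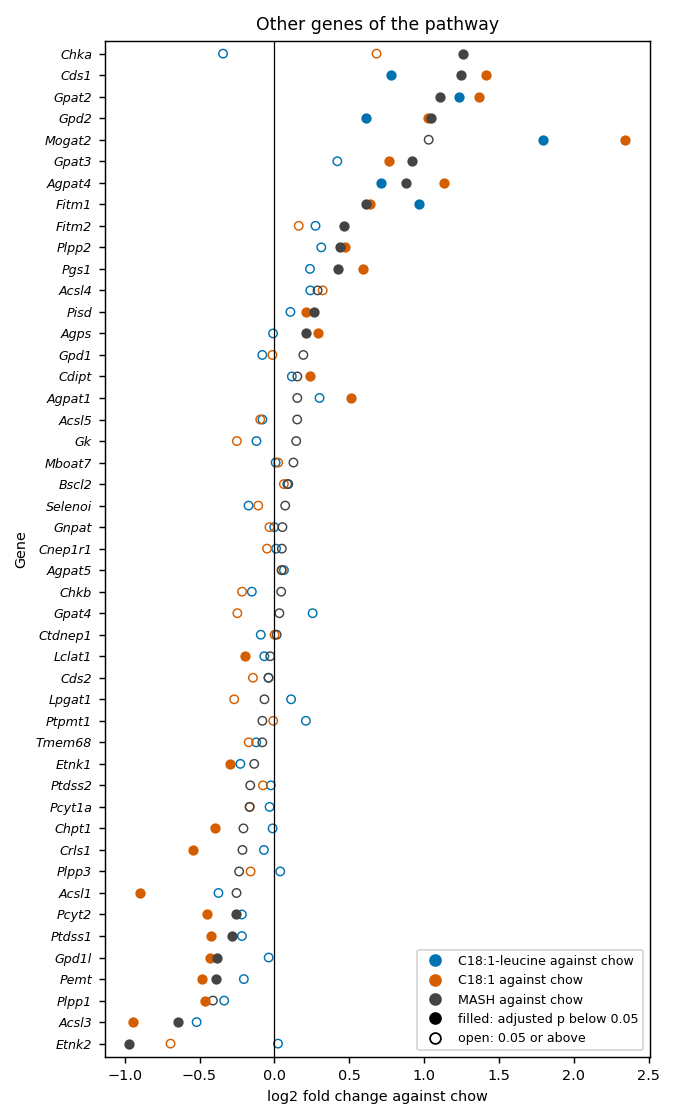
Log2 fold change against chow of the 47 other genes of the pathway in C18:1-leucine, C18:1 and MASH livers, sorted by the value in MASH livers. Filled points passed an adjusted p of 0.05. The changes in MASH livers run from −0.97 to 1.26.

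Among the 47, C18:1-leucine against C18:1 gave 1 higher and 3 lower, 8.51% beside the 16.2% of all genes. Crls1, the cardiolipin synthase gene, was higher in C18:1-leucine livers by 0.47 ± 0.11 (adjusted p = 0.0157, edgeR). Agps of ether lipid synthesis (−0.30 ± 0.08), Cds1 (−0.64 ± 0.18) and Chka (−1.02 ± 0.33) were lower. With groups from the tags no gene was called in this comparison, so these calls of Crls1, Agps, Cds1 and Chka ended. Fits without the disagreeing or the pancreatic libraries were not read for these genes. Chka averaged 41.1 ± 8.79 CPM in C18:1-leucine and 83.6 ± 26.5 CPM in C18:1 livers. Neither compound gave a call among the 47 against MASH with edgeR, where 10 had an unadjusted p under 0.05 in C18:1-leucine and 9 in C18:1 livers. Over all 15676 genes these counts were 2833 and 968.

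A list of 10 regulators of lipid synthesis and use moved in both directions. In MASH against chow 3 were higher, Pparg (1.20 ± 0.25), Srebf1, which encodes the lipogenic factor SREBP-1 (1.23 ± 0.39), and Insig2 (0.52 ± 0.19). Insig1, a target and brake of the SREBP pathway (−2.57 ± 0.35), Ppargc1a, which encodes the coactivator PGC-1α (−0.67 ± 0.24), and the glucocorticoid receptor gene Nr3c1 (−0.30 ± 0.10) were lower. In C18:1 against chow 2 were higher (Pparg and Srebf1) and 4 lower, and in C18:1-leucine against chow 2 were higher, Srebf1 (1.48 ± 0.39) and Pparg (0.81 ± 0.26), and 1 lower, Insig1 (−1.91 ± 0.34). Ppara averaged 152 ± 21.1 CPM in C18:1-leucine, 121 ± 20.2 in C18:1, 133 ± 18.6 in MASH and 142 ± 13.5 CPM in chow livers and was called in none of these comparisons. No regulator was called between groups on the MASH diet with edgeR, where 5 of the 10 had an unadjusted p under 0.05 in C18:1-leucine against C18:1 and 1 in each compound against MASH. Of all 15676 genes, 5010 had such a p in C18:1-leucine against C18:1. Against MASH they numbered 2833 in C18:1-leucine and 968 in C18:1 livers.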

How the data were processed

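RNA of 14 mouse liver libraries was sequenced after RNeasy extraction and NEBNext Ultra II library preparation, per the labels' protocols. The authors deposited expected counts per Ensembl gene, of which 5.09% to 5.76% per library were fractional, and these were rounded. The build GRCm38 and the tools HTSeq and DESeq2 1.42.1 are named by the submitters' processing notes, and the sources used here state neither their roles nor the strand setting of the counting. The 6 deposited tables of comparisons carry letters with no key and were not used. Every row of the count table carried a gene identifier.

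Groups came from the titles. Genes were kept by filterByExpr of edgeR 4.0.16 (minimum count 10, minimum total 15, smallest group 3), and all groups were fitted together with TMM scaling and a robust two-sided quasi-likelihood F test in R 4.3.3. The 6 comparisons were adjusted over 15676 genes each, with a threshold of 0.05. Log2 CPM used a prior count of 2. Exon lengths, coordinates and overlaps came from GENCODE release M21. The length of a gene was the union of all its annotated exons, not that of the transcripts present in liver. Shares and ranks between genes may depend on this choice, which was not tested. The scripts were tested on simulated data. Counts of the same library deposited again were looked for: chi-square per gene between libraries of a group was 25 to 168, so each was kept as 1 sample.

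The 10 genes and the lists were chosen with earlier results of these data known. All 10 are named in every comparison; of the 47 pathway genes, those with the 6 smallest p among those called, and for likeness the 5 genes of highest correlation with the largest rise and the largest fall. The alternatives tried were scaling by relative log expression, testing without the filter, DESeq2 1.42.0, limma voom 3.58.1 with sample weights, the compared groups alone, a replicate block, groups from the tags, disagreeing libraries left out and each library left out; total counts as library sizes and leaving out both libraries with pancreatic transcripts were added after seeing the data.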

Additional observations from a re-analysis of the deposited data

Results flagged for a closer look

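In groups of 4 libraries, 2 values stood far from the rest of their group by Dixon's criterion, among 20 groups tested, where chance marks about 1 in 20. Gpam in C18:1 replicate 1 was at 133.1 CPM, below the other C18:1 libraries by 0.875 of the range of the group. Lpin1 in C18:1 replicate 2 was at 112.1 CPM, above the others by 0.912 of the range. C18:1 replicate 1 is also the library whose treatment tag names diet alone. No cause was tested for either value.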

How the results depend on the processing

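Of the 10 genes, the number called in MASH against chow was 3 to 6 with each library left out, in C18:1 against chow 5 to 7 and in C18:1-leucine against chow 2 to 3; between groups on the MASH diet it was 0 in every such fit. In C18:1-leucine against chow it was 1 with groups from the tags, with total counts or without the pancreatic libraries. DESeq2 called 1 in C18:1 against MASH, and in C18:1-leucine against C18:1 voom called 2 and total counts 1. Over all genes, leaving out a library gave 3807 to 5731 calls in MASH against chow, 6952 to 8531 in C18:1 against chow, 976 to 2427 in C18:1-leucine against chow, 756 to 3042 in C18:1-leucine against C18:1, 0 to 61 in C18:1-leucine against MASH and 0 in C18:1 against MASH, where DESeq2 called 3. C18:1-leucine against MASH gave 11 calls, but 30 with no filter, 961 with DESeq2, 602 with voom, 51 with the groups fitted alone, 32 with total counts and 0 with groups from the tags, without disagreeing libraries or without pancreatic ones. C18:1-leucine against C18:1 gave 2543, but 4458 with voom, 1620 fitted alone, 0 with groups from the tags, 487 without disagreeing and 593 without pancreatic libraries. C18:1-leucine against chow gave 2275, but 653 with groups from the tags and 1049 without pancreatic libraries.

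Same-numbered libraries did not vary together (18 pairs, r of −0.245 to 0.423, median 0.032, 6 over 0.1), so the numbers were not taken as pairs. With the replicate block the calls were 5246 in MASH against chow (6 of the 10 genes), 7926 in C18:1 against chow (6), 1853 in C18:1-leucine against chow (2), 2306 in C18:1-leucine against C18:1 and 35 in C18:1-leucine against MASH.

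Signs of differences that were not called turned as follows (log2 fold change). With total counts these were Gpam to 0.12, Agpat3 to 0.21, Cept1 to 0.10 in MASH against chow, Dgat1 to 0.080, Mogat1 to 0.036 in C18:1 against MASH, Agpat3 to −0.089, Dgat1 to −0.001 in C18:1-leucine against MASH, Agpat3 to −0.079, Dgat1 to −0.081, Cept1 to −0.036 in C18:1-leucine against C18:1, Gpam to 0.28, Agpat3 to 0.20, Dgat2 to 0.029 in C18:1 against chow and Agpat3 to 0.12, Lpin2 to 0.001 in C18:1-leucine against chow. With groups from the tags these were Agpat3 to 0.056, Lpin3 to −0.052, Dgat1 to 0.084 in C18:1 against MASH, Mogat1 to 0.047 in C18:1-leucine against MASH, Mogat1 to 0.32 in C18:1-leucine against C18:1 and Lpin2 to 0.011 in C18:1-leucine against chow. With relative log expression scaling these were Dgat1 to 0.001 in C18:1 against MASH. With the replicate block these were Dgat1 to 0.008, Mogat1 to 0.19 in C18:1 against MASH, Gpam to 0.081 in C18:1-leucine against MASH and Agpat3 to 0.005 in C18:1-leucine against chow. With disagreeing libraries left out these were Dgat1 to 0.032 in C18:1 against MASH, Mogat1 to 0.011 in C18:1-leucine against MASH, Mogat1 to 0.040 in C18:1-leucine against C18:1 and Lpin2 to 0.012 in C18:1-leucine against chow. With voom these were Mogat1 to 0.002 in C18:1 against MASH and Gpam to 0.016, Agpat3 to −0.009 in C18:1-leucine against MASH. With pancreatic libraries left out these were Dgat2 to −0.024 in C18:1-leucine against chow.

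With each library left out, log2 fold changes had these ranges. MASH against chow gave Agpat3 −0.13 to 0.023. C18:1 against MASH gave Gpam −0.054 to 0.28, Lpin1 −0.14 to 1.36, Lpin2 −0.15 to 0.28, Dgat1 −0.044 to 0.039, Dgat2 −0.035 to 0.26, Mogat1 −0.17 to 0.16. C18:1-leucine against MASH gave Gpam −0.20 to 0.12, Agpat3 −0.043 to 0.11, Lpin3 −0.27 to 0.050, Mogat1 −0.98 to 0.011. C18:1-leucine against C18:1 gave Agpat2 −0.14 to 0.022, Mogat1 −0.92 to 0.070. C18:1 against chow gave Gpam −0.14 to 0.009. C18:1-leucine against chow gave Agpat3 −0.053 to 0.013, Lpin2 −0.27 to 0.011, Dgat2 −0.056 to 0.13.

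The cause of these shifts was not tested. The 22 to 57 counts of Mogat1 on chow, and groups of 3, limit the precision.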
